A study of Mus musculus with 7 samples.

Results

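The aminoacyl-tRNA synthetase genes were examined in C2C12, a mouse muscle precursor (myoblast) cell line in long use, after siRNA against either of 2 related histone methyltransferases. The members were 36 listed genes, 20 for cytosolic and 16 for mitochondrial synthetases, each matched by symbol to the array's annotation and taken from its probe set with the highest mean signal. This gave 34 of the 36 genes, 18 cytosolic and 16 mitochondrial, among 22180 genes in all. Dars has no probe set in the annotation used here, Aars has only a probe set shared with another gene and is not reported, and Mars is listed as Mars1. The array's annotation gave several probe sets only for Nars2.

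All cells received an siRNA by transfection (0.2 umol per dish by the labels) in medium with 15% serum. The groups were Control (control siRNA, 2 arrays), siG9a (siRNA against G9a, gene Ehmt2, 3 arrays) and siGLP (siRNA against GLP, gene Ehmt1, 2 arrays), with 1 single-colour array per sample of total RNA. G9a and GLP methylate histone H3 at lysine 9 and usually act as partners, and the design addresses where knockdown of either differs in its transcripts. The labels do not tie the replicates to separate cultures. The p-values here therefore rest on a spread between samples that may be technical. In RNA from whole dishes, fewer cells of a type and less RNA per cell cannot be told apart.

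Aminoacyl-tRNA synthetases join each amino acid to its tRNA and so supply protein synthesis. The cytosol and the mitochondrion use separate enzymes, encoded by separate nuclear genes for most amino acids, while Gars and Kars each serve both compartments and Eprs joins the glutamate and proline enzymes in a single chain. Several cytosolic enzymes form the multisynthetase complex with the scaffold proteins Aimp1, Aimp2 and Eef1e1. When uncharged tRNA accumulates, the kinase GCN2 phosphorylates eIF2, translation of the factor Atf4 rises, and Atf4 with a C/EBP partner switches on many cytosolic synthetase genes through a composite DNA element. Of the cytosolic members, 13 were listed as frequent Atf4 targets (Aars, Cars, Eprs, Gars, Iars, Lars, Mars, Nars, Sars, Tars, Vars, Wars and Yars). That list was written from general knowledge, but with earlier results of these data known.

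The core of that composite element, TGATGNAA, was searched on both strands in RefSeq's promoter windows of 250 bases before to 50 bases after a gene's start (GRCm38.p6). A window was found for 27 of the 36 members. The core occurred in 5 of 13 cytosolic windows (38.5%), in 0 of 14 mitochondrial windows, and in 1096 of the 27025 windows of the table (4.06%; 3.69% of the 17491 windows of protein-coding genes). All 5 belonged to listed Atf4 targets, which had 8 windows. That list rests on general knowledge of Atf4 targets, so this overlap is no independent support for it. No match overlapped another motif searched. The 5 genes are shown because 4 of them are followed through both knockdowns below, and Aars, which has no value here, completes the set. Capitals mark the core as read on the gene's strand, which is the core itself for Yars and its reverse complement for the others.
Gars, chr6:55037951-55037998 on the + strand: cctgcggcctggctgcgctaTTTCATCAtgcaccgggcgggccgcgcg
Iars, chr13:49682117-49682149 on the + strand: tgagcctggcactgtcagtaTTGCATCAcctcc
Yars, chr4:129189886-129189922 on the + strand: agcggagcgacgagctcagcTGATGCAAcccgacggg
Tars, chr15:11399646-11399693 on the - strand: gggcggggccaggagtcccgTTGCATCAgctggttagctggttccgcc
Aars, chr8:111033710-111033757 on the + strand: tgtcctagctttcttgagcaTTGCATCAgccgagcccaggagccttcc

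Iars, Yars, Tars and Aars share the letters TGATGCAA, and Gars holds TGATGAAA. The match began 30 bases before the start in Gars, 15 before in Tars and 112 before in Aars, which has another at bases 10 to 17, while in Yars and Iars it lay just after the start, at bases 4 to 11 and 8 to 15. The E-box CACGTG was found in 5 of the 27 members' windows, against 7.24% of all windows, and the ETS motif CCGGAAG in 9 of 27, against 9.12% of all windows and 11.9% of windows of protein-coding genes. The palindromic NRF1 motif was found in no member's window and in 0.977% of all windows. A match is a description of these letters and not of a bound site.

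The arrays resembled one another closely. Their medians were 4.54 to 4.59 on the log2 scale, and Pearson's r, taken across genes (no independent replicates), was 0.996 to 0.997 for arrays of 1 group and 0.994 to 0.996 for arrays of different groups. Ehmt2 fell in siG9a by 1.37 on the log2 scale (SE 0.10; limma, Benjamini-Hochberg adjusted p = 0.0308). That call was lost with only the groups compared (limma adjusted p = 0.13) and with any 1 array left out (0.0787 to 0.426). Ehmt1 stood at -0.79 in siGLP (SE 0.14; limma adjusted p = 0.197), which did not pass. Myoblast markers were present (Myod1 at 7.63 and Des at 11.02 in Control, against a lower quartile of the arrays of 3.32 to 3.36). Of the leukocyte markers, Ptprc (2.80) lay under that quartile in Control. Adgre1 (3.66), Cd3e (4.02), Csf1r (4.42) and Cd68 (7.14) lay above it. Every one of the 34 synthetase genes had a mean signal at or above the median of all genes, so the same counts over the 11090 genes at or above that median are given beside theirs.

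After siRNA against G9a, most cytosolic synthetase transcripts lay slightly below Control. The median log2 difference of the 18 genes was -0.10 (range -0.39 to 0.16), with 15 of 18 below Control, against a median of 0.0052 and 48% of all genes below (46.8% of genes at or above the median level). No synthetase gene passed the threshold (limma, Benjamini-Hochberg adjusted p under 0.05), which 0.0271% of all genes did, and the smallest adjusted p among the members was 0.15. An unadjusted p under 0.05 was reached by 4 cytosolic genes and 1 mitochondrial gene, all lower, against 4.57% of all genes in that direction (6.55% at or above the median level), and by no higher member (5.95% of all genes and 8.83% at or above the median level). In 11 of 18 cytosolic genes every siG9a array lay below both Control arrays, as in 11.7% of all genes (15.9% at or above the median level). Without Control 1 the cytosolic median was -0.067. In 1 cytosolic gene (Qars) every siG9a array lay above both, as in 14% and 19.4%.

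Wars, the tryptophan enzyme, which is also induced by interferon, had the largest cytosolic difference in siG9a. Its log2 signals were 9.42 and 9.31 in Control, 8.90, 9.07 and 8.96 in siG9a, and 9.16 and 9.10 in siGLP. Both knockdowns lay below Control without overlap, and siG9a lay lowest. The difference was -0.39 in siG9a (SE 0.077, 1.31-fold lower; limma adjusted p = 0.157) and -0.23 in siGLP (SE 0.084; limma adjusted p = 0.51), neither past the threshold.

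The isoleucine and leucine enzymes, both subunits of the multisynthetase complex, had like values in the 2 knockdowns. Iars read 10.31 and 10.16 in Control, 9.97, 9.99 and 9.97 in siG9a, and 10.00 and 9.99 in siGLP. All 5 knockdown arrays lay close together and below both Control arrays, which were farther from each other than the knockdown arrays were. For Lars the log2 signals were 10.71 and 10.52 in Control, 10.40, 10.36 and 10.33 in siG9a, and 10.41 and 10.32 in siGLP, again without overlap with Control. Iars differed from Control by -0.26 in siG9a (SE 0.067; limma adjusted p = 0.25) and -0.24 in siGLP (SE 0.073; limma adjusted p = 0.421). Lars differed by -0.25 in both (SE 0.077 and 0.085; limma adjusted p = 0.328 and 0.462), and by -0.16 in both without Control 1. Between the knockdowns the difference was 0.018 for Iars (95% interval -0.14 to 0.18) and 0.0010 for Lars (-0.18 to 0.18).

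Yars, the tyrosine enzyme, read 9.17 on both Control arrays, 8.92, 8.99 and 9.04 in siG9a, and 9.02 and 9.04 in siGLP. Its Control arrays agreed to the second decimal and every knockdown array lay below them. The difference was -0.19 in siG9a (SE 0.064; limma adjusted p = 0.363) and -0.14 in siGLP (SE 0.070; limma adjusted p = 0.675). Qars, the glutamine enzyme, was the cytosolic gene with the highest value in siG9a, at 0.16 (SE 0.084; limma adjusted p = 0.582). Its siG9a signals of 8.243, 8.004 and 8.083 all lay above the Control signals of 7.950 and 7.955, and siGLP read 7.961 and 7.876. Hars, the histidine enzyme, stood at 0.0090 in siG9a and 0.0022 in siGLP.

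**Figure D1:**
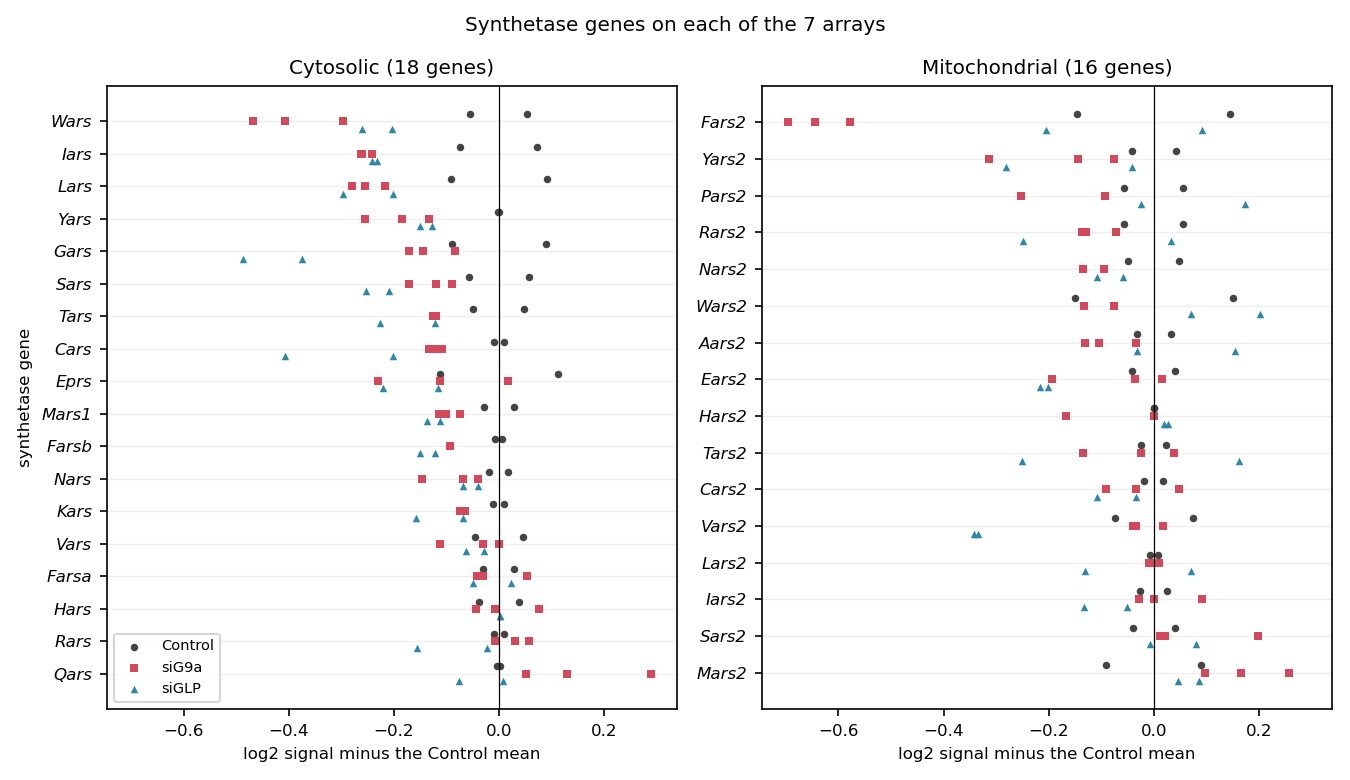
Every measured synthetase gene on every array, as log2 signal minus that gene's Control mean, for 18 cytosolic genes (left) and 16 mitochondrial genes (right). Points are single arrays (2 Control, 3 siG9a, 2 siGLP), genes are ordered by their siG9a difference, and points with equal values lie on top of each other. Fars2 has its siG9a arrays farthest from Control, and Wars leads the cytosolic genes.

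Mitochondrial synthetase transcripts showed a smaller median in siG9a and 1 gene far from the rest. The median log2 difference of the 16 genes was -0.063 (range -0.64 to 0.17). Of the 16, 12 lay below Control, against 48% of all genes (46.8% at or above the median level). In 6 every siG9a array lay below both Control arrays (11.7% of all genes, 15.9% at or above the median level). In 1 (Mars2, at 0.17) every siG9a array lay above both (14% and 19.4%). Without siG9a 2 the median was -0.010. Fars2, the mitochondrial phenylalanine enzyme, read 7.05 and 7.34 in Control, 6.55, 6.62 and 6.50 in siG9a, and 6.99 and 7.29 in siGLP. The siG9a arrays lay below all 4 others, whereas Control and siGLP overlapped and each held a wider spread. Its difference was -0.64 in siG9a (SE 0.12, 1.56-fold lower; limma adjusted p = 0.15), the largest in size of any synthetase gene in that comparison, and -0.056 in siGLP (SE 0.13). It ranked 168 by p among all genes. The difference in siG9a was -0.79 without Control 1 and -0.49 without Control 2. The cytosolic phenylalanine enzyme has 2 subunits, encoded by Farsa (-0.0057 in siG9a) and Farsb (-0.092).

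After siRNA against GLP, the cytosolic median was -0.14 (range -0.43 to 0.0022), and 17 of 18 genes lay below Control, against a median of 0.0015 and 49.2% of all genes below (50.5% of genes at or above the median level). None of the 34 members passed (limma, Benjamini-Hochberg adjusted p under 0.05), as 0.00451% of all genes did, and the smallest adjusted p among them was 0.225. An unadjusted p under 0.05 was reached by 7 cytosolic genes and 1 mitochondrial gene, all lower, against 4.13% of all genes in that direction (5.63% at or above the median level), and by no higher member (4.51% of all genes and 5.4% at or above the median level). In 14 of 18 cytosolic genes both siGLP arrays lay below both Control arrays, as in 16.9% of all genes (21% at or above the median level). No cytosolic gene and 1 mitochondrial gene (Hars2) had both siGLP arrays above Control, as did 17.4% and 19.9%. The same 2 Control arrays serve both knockdowns, so the values of the 2 comparisons are not independent of each other.

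Gars, the glycine enzyme of both compartments, had the largest difference in siGLP. Its log2 signals were 11.04 and 10.86 in Control, 10.78, 10.80 and 10.86 in siG9a, and 10.57 and 10.46 in siGLP. Both siGLP arrays lay below all 5 others, and the siG9a arrays reached the lower Control array. The difference was -0.43 in siGLP (SE 0.087, 1.35-fold lower; limma adjusted p = 0.225) and -0.13 in siG9a (SE 0.079; limma adjusted p = 0.62). Without Control 1 the siGLP difference was -0.34 and without Control 2 it was -0.52.

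Cars, the cysteine enzyme, read 8.86 and 8.84 in Control, 8.74, 8.72 and 8.73 in siG9a, and 8.65 and 8.44 in siGLP. The 3 groups did not overlap, with siGLP lowest and its 2 arrays 0.21 apart. It differed from Control by -0.30 in siGLP (SE 0.083; limma adjusted p = 0.375) and by -0.12 in siG9a (SE 0.076; limma adjusted p = 0.637). Sars, the serine enzyme, read 11.03 and 10.92 in Control, 10.80, 10.86 and 10.89 in siG9a, and 10.72 and 10.77 in siGLP, also without overlap between the 3 groups. Its difference was -0.23 in siGLP (SE 0.073; limma adjusted p = 0.434) and -0.13 in siG9a. Tars, the threonine enzyme, stood at 10.49 and 10.40 in Control, 10.32 on each of the 3 siG9a arrays, and 10.32 and 10.22 in siGLP, with a difference of -0.17 in siGLP (SE 0.072; limma adjusted p = 0.567). Its knockdown arrays all lay below Control, and 1 siGLP array sat at the siG9a level.

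Among mitochondrial genes in siGLP the median was -0.050 (range -0.34 to 0.14). Of the 16, 10 lay below Control, against 49.2% of all genes (50.5% at or above the median level). In 5 both siGLP arrays lay below both Control arrays (16.9% of all genes, 21% at or above the median level). Without siGLP 2 the median was 0.026, with 7 of 16 below Control. Vars2, the mitochondrial valine enzyme, read 6.22 and 6.07 in Control, 6.11, 6.12 and 6.17 in siG9a, and 5.81 on both siGLP arrays. The siGLP arrays stood alone below the other 5. The difference was -0.34 in siGLP (SE 0.075, 1.26-fold lower; limma adjusted p = 0.262) and -0.019 in siG9a (SE 0.068). Vars, its cytosolic counterpart, differed by -0.045 in siGLP and -0.047 in siG9a. Hars2 gave the same value on both Control arrays and on 2 siG9a arrays, and Farsb on all 3 siG9a arrays, as repeated values in the deposited table.

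**Figure D2:**
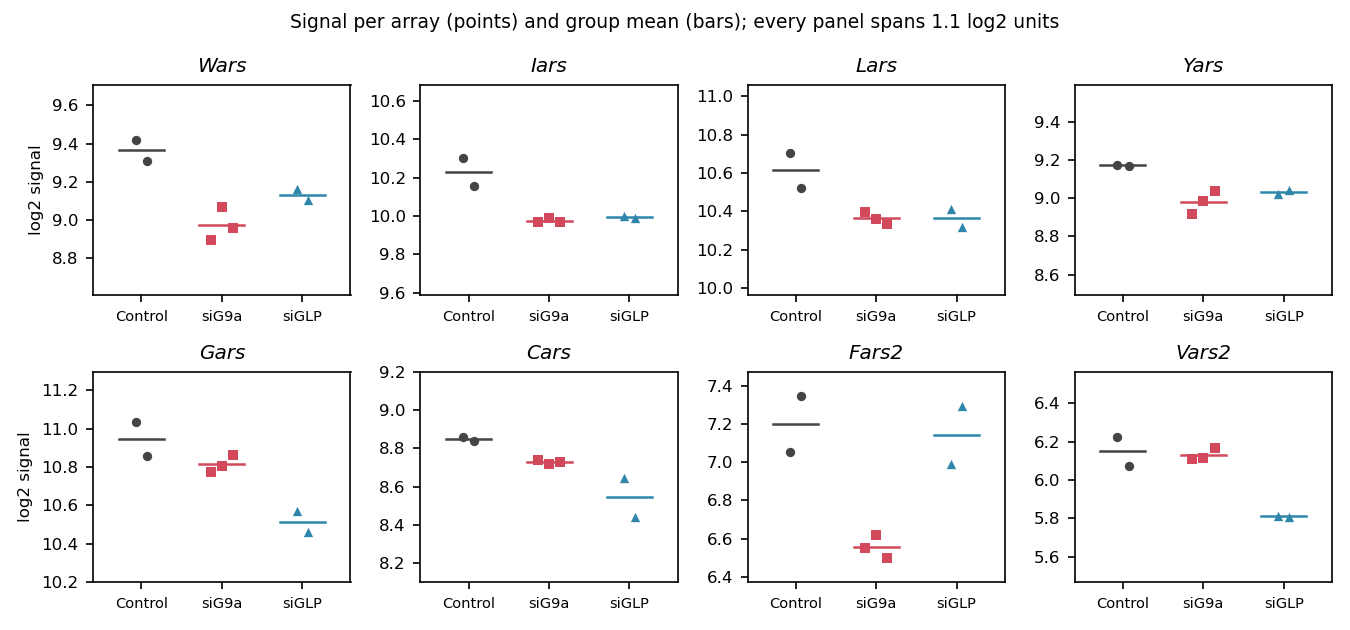
Log2 signal of 8 synthetase genes on each array (points: 2 Control, 3 siG9a, 2 siGLP), with each group's mean as a bar and the same span of 1.1 log2 units in every panel. Wars, Iars, Lars and Yars lie below Control in both knockdowns, Gars, Cars and Vars2 lie lowest in siGLP, and Fars2 lies lowest in siG9a.

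The 2 knockdowns were then compared directly, which uses no Control array for the difference itself. Over the 34 members the median of siGLP minus siG9a was -0.017 (range -0.32 to 0.58), and 20 of 34 lay lower in siGLP, against 51.4% of all genes (53.8% of genes at or above the median level). No member passed (limma, Benjamini-Hochberg adjusted p under 0.05), which 0.234% of all genes did. An unadjusted p under 0.05 was reached by 3 members lower in siGLP (Vars2, Gars and Cars), against 6.57% of all genes (10.2% at or above the median level), and by 2 higher (Fars2 and Pars2), against 5.87% (7.94%). The arrays of the 2 knockdowns did not overlap in 10 members that were lower in siGLP (14.2% of all genes, 20.4% at or above the median level) and in 6 that were higher (12.1% and 15.5%). The smallest adjusted p belonged to Fars2 (difference 0.58, SE 0.12, 95% interval 0.30 to 0.87; limma adjusted p = 0.121) and Vars2 (-0.32, SE 0.068, 95% interval -0.48 to -0.16; limma adjusted p = 0.134). These 2 genes did pass when genes under the median level were left out before the fit (limma adjusted p = 0.0471 for both). With that filter 350 of the 11090 genes tested passed. The filter changes the number of genes tested and the moderated variances, and not the differences of the 2 genes.

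Gars differed between the knockdowns by -0.30 (SE 0.079; limma adjusted p = 0.201) and Cars by -0.18 (SE 0.076; limma adjusted p = 0.39). Pars2, the mitochondrial proline enzyme, read 5.11 and 4.99 in Control, 4.96, 4.96 and 4.80 in siG9a, and 5.22 and 5.03 in siGLP. Its siGLP arrays lay above its siG9a arrays and overlapped Control, and the difference between the knockdowns was 0.22 (SE 0.091; limma adjusted p = 0.393). Wars was higher in siGLP than in siG9a on every array, by 0.16 (SE 0.077, 95% interval -0.02 to 0.34). The other 23 members, outside the 11 with an unadjusted p under 0.05 in some comparison, lay between -0.19 and 0.23.

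**Figure D3:**
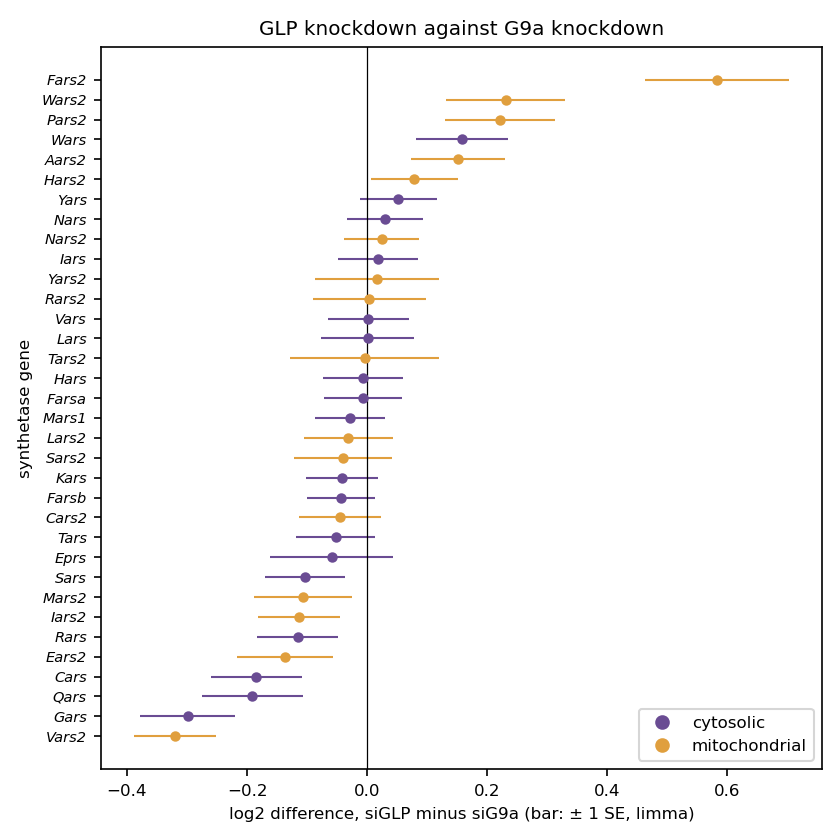
Log2 difference of siGLP minus siG9a for the 34 measured synthetase genes, ordered by value, with bars of 1 SE from limma. Fars2 lies highest at 0.58 and Vars2 lowest at -0.32, and most of the other genes lie within about 0.2 of 0.

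The members were also grouped by what is known of the enzymes. Of the 13 listed genes 12 were measured, and 12 of 12 lay below Control in siG9a (median -0.12) and 12 of 12 in siGLP (median -0.20). In 9 of them in siG9a and 11 in siGLP every knockdown array lay below both Control arrays, as in 11.7% and 16.9% of all genes (15.9% and 21% at or above the median level). Of the 6 other cytosolic genes measured (Farsa, Farsb, Hars, Kars, Qars and Rars), 3 lay below Control in siG9a (median 0.0017) and 5 in siGLP (median -0.062). That siG9a median was -0.032 without Control 1 and 0.030 without Control 2. No test was made of the difference between these lists, which were drawn up with earlier results of these data known.

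The 4 measured genes with the TGATGNAA core in their window (Gars, Iars, Yars and Tars) ranged from -0.26 to -0.12 in siG9a and from -0.43 to -0.14 in siGLP. The 7 measured cytosolic genes whose window lacks it (Farsb, Eprs, Sars, Farsa, Kars, Qars and Mars1) ranged from -0.13 to 0.16 in siG9a and from -0.23 to -0.013 in siGLP, so the ranges overlap in both comparisons. Cars, Hars, Lars, Nars, Rars, Vars and Wars had no window and are in neither group. They ranged from -0.39 (Wars) to 0.027 (Rars) in siG9a and from -0.30 (Cars) to 0.0022 (Hars) in siGLP. By catalytic class, the 9 enzymes of class I had a median of -0.12 in siG9a and -0.14 in siGLP, and the 8 of class II had -0.088 and -0.12. The 7 measured enzymes of the multisynthetase complex had medians of -0.096 and -0.12, from Iars and Lars at the low end to Qars in siG9a. The complex's scaffold Aimp1 stood at -0.035 in siG9a and -0.078 in siGLP, and Eef1e1 at -0.28 (SE 0.082; limma adjusted p = 0.304) and -0.11.

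Control 1 read higher than Control 2 in 12 of the 12 listed Atf4 target synthetases, by a median of 0.10, and in 23 of the 34 synthetase genes, against 44.4% of all genes. The median siG9a difference of the 12 genes was -0.072 without Control 1 and -0.19 without Control 2, and the median siGLP difference was -0.15 and -0.28. Against Control 2 alone, 11 of 12 lay below Control in siG9a and 11 of 12 in siGLP. Against Control 1 alone it was 12 of 12 in each. These counts with 1 Control array were added after the data were seen.

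**Figure D4:**
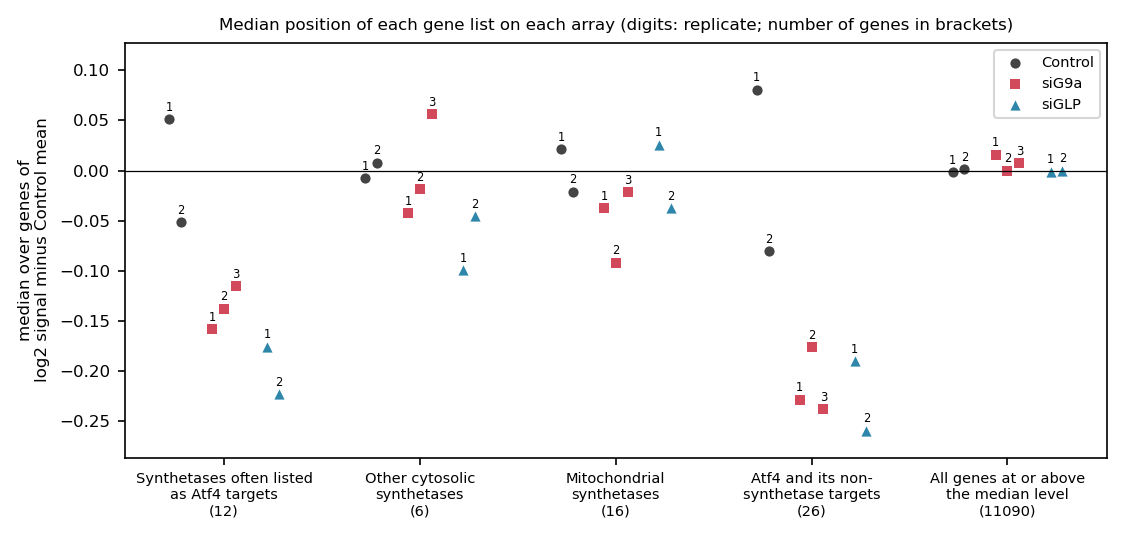
Median, over the genes of each list, of the log2 signal minus the gene's Control mean, for each array (digits give the replicate number, and the number of genes is in brackets). For the listed Atf4 target synthetases, and for Atf4 with its other targets, Control 1 lies highest, Control 2 lower and all 5 knockdown arrays below both, while all genes at or above the median level stay near 0.

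Atf4 and its non-synthetase targets, a list of 27 genes of which 26 were measured, was set beside the synthetases. In siG9a 22 of 26 lay below Control (median -0.21), and in siGLP 22 of 26 (median -0.23). None passed over all genes in either comparison (limma, Benjamini-Hochberg), and 9 in each had an unadjusted p under 0.05, all lower. Of all genes, 48% lay below Control in siG9a and 49.2% in siGLP, and 4.57% and 4.13% were lower at that p. The smallest p-values in siG9a belonged to Stc2, a secreted glycoprotein (-0.55; limma adjusted p = 0.106), the one-carbon enzyme Mthfd2 (-0.41), Phgdh, the first enzyme of serine synthesis (-0.55), and Aldh1l2 (-0.53). In siGLP they belonged to Stc2 (-0.40; limma adjusted p = 0.262), Herpud1 (-0.37), Nupr1 (-0.32) and Psph (-0.23). Herpud1 went the other way in siG9a, at 0.15 with every siG9a array above both Control arrays. Between the knockdowns it differed by -0.52 (SE 0.079; limma adjusted p = 0.0686). In that direct comparison 14 of 26 genes of the list were lower in siGLP (median -0.032), against 51.4% of all genes. The Atf4 transcript itself stood at -0.071 in siG9a and 0.0028 in siGLP. Control 1 was higher than Control 2 in 22 of the 26 genes, by a median of 0.16, and the list's median without Control 1 was -0.076 in siG9a and -0.11 in siGLP. Amino acid transporters were kept in a separate list, so the counts above describe only the genes listed here. Of 13 transporters, 8 lay below Control and 5 above it in each comparison. Slc7a5 was lower in both knockdowns, while Slc1a4 stood at 0.30 in siG9a and Slc7a11 at 0.47 in siGLP.

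Marker genes of cell types were read on the same arrays. None passed in siG9a or siGLP (limma, Benjamini-Hochberg adjusted p under 0.05), with a smallest adjusted p of 0.133 in each comparison. An unadjusted p under 0.05 was reached by 5 myoblast markers in siG9a and 3 in siGLP and by 2 and 1 myotube markers, all lower, and by 1 leukocyte marker (Cd68) in each, which was higher. Over all genes, 4.57% were lower and 5.95% higher at that p in siG9a, and 4.13% and 4.51% in siGLP. Of 7 myoblast markers, 6 lay below Control in siG9a and 6 in siGLP. The cadherin Cdh15 stood at -0.51 in both, and the myogenic factor Myod1 at -0.68 in siG9a and -0.0025 in siGLP. Summed signals are given as the log2 of the sum of unlogged signals, so the brightest marker weighs most. For the myoblast markers, where Des (11.02 in Control) is brightest, the sum was 11.77 to 11.78 in Control, 11.60 to 11.66 in siG9a and 11.56 to 11.63 in siGLP. Of 8 myotube markers 6 and 5 lay below Control. Mymk stood at -0.29 in siG9a and -0.71 in siGLP (limma adjusted p = 0.184 and 0.133), with every knockdown array below both Control arrays. Actc1 stood at -0.61 in siG9a (limma adjusted p = 0.251) and -0.35 in siGLP. The summed signal of the 8 myotube markers was 8.43 to 8.66 in Control, 8.33 to 8.51 in siG9a and 8.21 to 8.46 in siGLP, so these sums overlap. Of 5 leukocyte markers, 2 lay below Control in siG9a (median 0.15) and 1 in siGLP (median 0.10). Their summed signal was 7.56 to 7.70 in Control, 8.05 to 8.16 in siG9a and 7.93 to 8.18 in siGLP. Cd68 makes up most of that sum, with means of 7.14 in Control, 7.76 in siG9a and 7.68 in siGLP. The differences of the other leukocyte markers lay between -0.011 and 0.15 in siG9a and between -0.031 and 0.10 in siGLP. Cd68, which many cells carry in lysosomes, stood at 0.62 and 0.54. The mean of Ptprc was under the arrays' lower quartile in every group, and the means of the other leukocyte markers were above it. None of the 4 endothelial, 4 adipocyte and 4 neuron markers had an unadjusted p under 0.05 in siG9a or siGLP. Their summed signals overlapped between Control and each knockdown, except that the neuron markers read 8.74 to 8.89 in Control and 8.52 to 8.71 in siGLP. The part of these markers in the synthetase values was not tested.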

How the data were processed

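Expression was measured on 7 single-colour arrays. The authors deposited log2 values per probe set, and the submitters' processing notes name RMA (background correction, quantile normalization and summary over probes) and Partek without versions; the log2 scale was taken from the values. The sources used here give no build, filter or scan date. RMA compresses differences of dim probe sets and makes every value relative to the bulk of transcripts. Of 33649 probe sets 23521 carried 1 symbol, 1814 several and 8314 none. Symbols were updated through gene numbers with the RefSeq table of GRCm38.p6 (23328 matched), and the probe set with the highest mean was kept, leaving 22180 genes. In 4746 genes, 2 of them synthetases, at least 3 arrays hold an identical value.

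Limma 3.58.1 in R 4.3.3 (lmFit, eBayes) was fitted to all genes with 1 mean per group and all 7 arrays (4 residual degrees of freedom, 6.89 with moderation). Tests were two-sided, with Benjamini-Hochberg adjustment over all genes at 0.05, and fitted on simulated data first. Folds were computed from log2 differences. Per-array values are given for members with an unadjusted p under 0.05 in any comparison (11 genes, under a limit of 12), and those of Qars were added after its values were seen; other members are given by their differences. From other lists up to 4 genes with the smallest p are named. Arrays of 2 or 3 per group limit the precision. The members and lists were chosen with earlier results of these data known. Alternatives were 2 filters on level, 3 scalings, trended variance, fewer groups, mean probe sets, a replicate block and leaving out each array.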

Additional observations from a re-analysis of the deposited data

How the results depend on the processing

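The count of synthetase genes past the threshold was 0 under every setting run in the 2 comparisons with Control, and in siGLP minus siG9a it was 2 (Fars2 and Vars2) with genes under the median level left out and 0 otherwise. Some settings came near the threshold. The smallest limma adjusted p of a member was 0.0532 in siG9a with genes under the median left out. In siGLP it was 0.0820 with trended, robust variance. Counts over all genes moved more. The main counts were 6 in siG9a, 1 in siGLP and 52 in siGLP minus siG9a. With genes under the 30th percentile of level left out they were 30, 1 and 171, with genes under the median left out 148, 21 and 350, and with trended, robust variance 100, 23 and 304. In siG9a the count was 16 after quantile normalization and 12 with arrays centred on their median. It was 0 in all 3 comparisons with only the groups compared. Leaving out 1 array gave 0 in siG9a, 0 to 1 in siGLP and 0 in siGLP minus siG9a. The cytosolic median stayed below 0 in both comparisons with Control, and without 1 array it ranged from -0.13 to -0.067 in siG9a (nearest 0 without Control 1) and from -0.15 to -0.11 in siGLP. The mitochondrial median ranged from -0.083 to -0.010 in siG9a (-0.010 without siG9a 2) and from -0.052 to 0.026 in siGLP, where it turned sign without siGLP 2; the cause was not tested. In siGLP minus siG9a the mitochondrial median lay between -0.019 and 0.022 across the 3 scalings. Ehmt2 kept its sign throughout and lost its call with only the groups compared (adjusted p = 0.130), with the replicate block (0.163) and whenever 1 array was left out (0.0787 to 0.426). The deviations of same-numbered arrays correlated at 0.0047 to 0.17 (6 pairs), and those of other-numbered arrays of different groups at -0.17 to 0.15. In a group of 2 arrays the deviations mirror each other, so these pairs are not independent. The correlations therefore cannot decide whether the replicate numbers pair the samples. With the replicate block 0 genes passed in each comparison and the cytosolic medians were -0.10 in siG9a and -0.14 in siGLP.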

Other observations

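Translation genes outside the synthetases were examined from lists written from general knowledge, with earlier results of these data known. Of 10 other genes of mitochondrial charging and elongation, 7 lay below Control in siG9a and 8 in siGLP, against 48% and 49.2% of all genes. None passed (limma, Benjamini-Hochberg adjusted p under 0.05). At an unadjusted p under 0.05, 1 was lower in each, against 4.57% and 4.13% of all genes. Gfm1, the mitochondrial elongation factor G, read 8.84 and 8.88 in Control, 8.50, 8.51 and 8.56 in siG9a, and 8.93 and 8.97 in siGLP. Its siG9a arrays lay below and its siGLP arrays above Control, with a difference of -0.34 in siG9a (SE 0.060; limma adjusted p = 0.141) and of 0.43 between the knockdowns (SE 0.060; limma adjusted p = 0.059). Tufm, the mitochondrial elongation factor Tu, stood at -0.26 in siGLP. The 5 cytosolic elongation factor genes had a median of -0.038 in siG9a and -0.040 in siGLP, with no unadjusted p under 0.05 and none past the threshold (limma). Among 9 measured genes of tRNA end addition, export and editing, 5 lay below Control in each comparison, and none passed or had an unadjusted p under 0.05 (limma). Xpot, which exports tRNA from the nucleus, had the smallest p in siG9a at -0.19.

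Of 8 measured eIF2 kinases and GCN2 pathway genes none passed (limma, Benjamini-Hochberg; at an unadjusted p under 0.05, 0 in siG9a, and 1 lower and 2 higher in siGLP). Impact, an inhibitor of GCN2 activation, read 9.15 and 9.36 in Control, 9.26, 9.46 and 9.46 in siG9a, and 9.99 and 9.88 in siGLP. Its siGLP arrays lay above all 5 others, at a difference of 0.68 (SE 0.11; limma adjusted p = 0.184). Eif2ak2 stood at 0.42 and Eif2ak1 at -0.31 in siGLP. Among 13 amino acid transporters none passed in either comparison with Control (limma), and 1 lower and 2 higher in siG9a, and 1 lower and 1 higher in siGLP, had an unadjusted p under 0.05. Over all genes, 4.57% were lower and 5.95% higher at that p in siG9a, and 4.13% and 4.51% in siGLP. The lower gene in each was Slc7a5, the large neutral amino acid transporter, at -0.33 in siG9a (limma adjusted p = 0.14) and -0.21 in siGLP. The higher genes were Slc36a1 (0.38) and Slc1a4 (0.30) in siG9a and Slc7a11 (0.47) in siGLP. In siG9a Slc7a11 stood at -0.26.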
